A study of Mus musculus with 9 samples.

Results

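Glutathione S-transferases join the tripeptide glutathione to electrophilic compounds, and 10 genes of this kind were examined in RAW264.7 cells, a mouse macrophage line. They were chosen by name, as the rows for Gstp1 (class pi), Gstm1 and Gstm5 (mu), Gsto1 (omega), Gstt1 and Gstt3 (theta), Gstz1 (zeta) and the membrane-bound Mgst1, Mgst2 and Mgst3. These 10 were among 54532 genes in the expression table, and 7 of them passed the filter on low values, which kept 11585 genes. Gstt1, Gstm5 and Mgst1 did not. The filter asked for an FPKM of 1 or more in 3 libraries, and Gstt3 met it through the LPS + G-CDs group, since only 2 of the other 6 libraries reached 1. Where Gstt3 is higher in that group, it is therefore given by its values and not counted as a change.

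Gene expression was measured by RNA-seq of mRNA in 9 libraries. In the control group, 3 libraries came from untreated cells, and the duration of their culture was not given. In the LPS group, 3 libraries came from cells exposed for 6 h to lipopolysaccharide (LPS) at 1 μg/ml, a bacterial surface molecule that macrophages sense. In the LPS + G-CDs group, 3 libraries came from cells that received the same LPS for 6 h together with 400 μg/ml of G-CDs, carbon dots made from Glycyrrhiza with superoxide dismutase-like activity. All 3 groups were the wild-type line, the sample titles name G-CDs while the treatment label of those samples gives LPS alone, and there was no group with G-CDs alone. The labels give ascites as the tissue, and 9 of 10 macrophage markers had a mean above 1 FPKM (fragments scaled to gene length and library size), with Mrc1 the exception. All 14 markers of other cell types were below 1 FPKM on average, with sums of 0.693 to 1.24 FPKM in control, 1.10 to 1.47 in LPS and 1.04 to 1.21 in LPS + G-CDs libraries, and Ms4a1, Cd8a, Ncr1 and Epcam were listed at 0 throughout. Nothing in the labels says that the libraries of a group came from separate cultures, so p-values measure the spread between these libraries, which may be technical. Reads on genes numbered 14752400 in the shallowest library and 17312255 in the deepest.

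The soluble glutathione S-transferases fall into classes that differ in the compounds they accept, and several also bind other ligands or rearrange substrates without forming a stable conjugate. The membrane-bound enzymes belong to a separate superfamily, MAPEG (membrane-associated proteins in eicosanoid and glutathione metabolism), whose other members act in leukotriene and prostaglandin synthesis. Many genes of both kinds are known targets of the transcription factor Nrf2, which binds antioxidant response elements (AREs) when oxidants or electrophiles release it from Keap1.

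The promoters of Gstp1, Mgst2 and Gstt3 are shown for their sequence context, since these are the 3 genes whose LPS + G-CDs libraries all lay above the LPS libraries. Each run covers 250 bases before and 50 bases after a RefSeq start site in GRCm38.p6, written 5′ to 3′ on the strand of the gene. Capitals mark the AP-1 site TGAGTCA, searched on both strands, so that it can read TGACTCA. The Gstp1 window lies at chr19:4037863-4038162 on the minus strand, that of Mgst2 at chr3:51660929-51661228 on the plus strand, and that of Gstt3 at chr10:75781373-75781672 on the minus strand.
Gstp1: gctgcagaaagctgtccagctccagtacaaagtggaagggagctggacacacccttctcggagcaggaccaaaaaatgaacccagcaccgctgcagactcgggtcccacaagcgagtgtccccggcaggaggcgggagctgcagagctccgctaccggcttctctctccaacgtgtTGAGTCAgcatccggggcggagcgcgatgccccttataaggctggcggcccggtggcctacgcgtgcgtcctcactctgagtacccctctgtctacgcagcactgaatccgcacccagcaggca
Mgst2: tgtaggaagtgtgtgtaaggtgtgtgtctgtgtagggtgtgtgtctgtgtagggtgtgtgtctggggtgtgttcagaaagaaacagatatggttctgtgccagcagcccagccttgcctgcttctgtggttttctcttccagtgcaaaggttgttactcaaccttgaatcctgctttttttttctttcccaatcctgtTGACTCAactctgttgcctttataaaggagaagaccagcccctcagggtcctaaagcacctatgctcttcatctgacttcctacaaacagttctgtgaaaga
Gstt3: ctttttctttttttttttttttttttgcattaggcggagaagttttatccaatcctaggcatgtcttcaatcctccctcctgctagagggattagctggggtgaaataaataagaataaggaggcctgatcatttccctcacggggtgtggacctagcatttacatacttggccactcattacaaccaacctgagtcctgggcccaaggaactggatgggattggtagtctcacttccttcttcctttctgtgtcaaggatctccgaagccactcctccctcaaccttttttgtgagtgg

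In the Gstp1 promoter the AP-1 site began 74 bases before the start site, and in the Mgst2 promoter it began 52 bases before it. RefSeq held 14 start-site windows for the 10 genes. AP-1 sites were found in those of 3 genes, the third being Gstm5, and the ARE core TGACNNNGC was found in those of 2 genes, Gstm5 and Mgst1. Of 32851 mouse promoter windows of this length, 5.20% held the AP-1 site and 12.4% the ARE core, and counted by gene, 1607 and 3781 of 27025 genes did so in at least 1 window. The motifs can overlap, and an AP-1 site that reads TGACTCA and is followed by GC is also an ARE core. In the Gstp1 window the site reads TGAGTCA and is followed by GC, which differs by 1 letter from the core searched. The Mgst2 window begins inside the authors' gene model, which extends farther upstream than this RefSeq start site. Gstt3 held neither motif in either of its windows. A match of letters is a description of these windows and not evidence of binding, and both genes with an ARE core in the window were below the filter in these cells.

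The transferase mRNA pool was dominated by a few members. By mean FPKM over the 9 libraries the order was Gsto1, Gstp1, Mgst3, Mgst2, Gstz1, Gstm1 and Gstt3, followed by Gstt1, Gstm5 and Mgst1. Summed over the 10 genes, FPKM was 39.1 to 64.8 in control, 30.9 to 34.3 in LPS and 42.5 to 64.8 in LPS + G-CDs libraries. Gsto1 made up 30.4% ± 2.01 (SD, n = 3) of that sum in control, 41.3% ± 2.36 in LPS and 35.1% ± 1.93 in LPS + G-CDs libraries. Gstp1 made up 22.4% ± 2.90, 12.3% ± 4.07 and 21.6% ± 1.19 in the same order of groups. Mgst2 made up 14.1% ± 3.0, 4.77% ± 0.735 and 6.70% ± 1.89. Gstt3 was a minor part of the pool, at 1.96% ± 0.271, 2.75% ± 0.0930 and 3.99% ± 0.180, with every LPS + G-CDs library above the 6 others. These shares depend on one another, since a fall in Gstp1 and Mgst2 raises the share of the rest, and in bulk RNA fewer cells of a kind and less RNA per cell cannot be told apart.

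**Figure D1:**
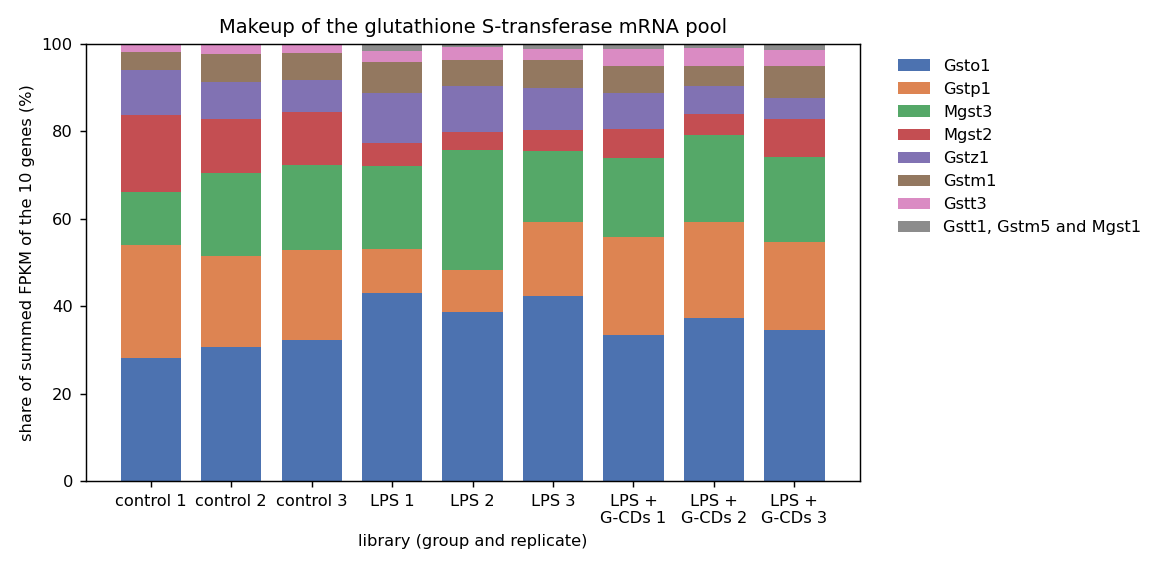
Share of the summed FPKM of the 10 genes (percent, vertical axis) in each of the 9 libraries (horizontal axis), with colors for genes and Gstt1, Gstm5 and Mgst1 combined. Gsto1 is the largest segment in every library, and the Gstp1 segment averages 12.3% in LPS libraries against 22.4% in control and 21.6% in LPS + G-CDs libraries.

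Differences were tested with limma on log2(FPKM + 1) across the 11585 genes, in 1 model of the 9 libraries with Benjamini-Hochberg adjustment, and a gene was called at an adjusted p under 0.05. On this scale a fold change comes out too small where FPKM is low. The 3 comparisons share libraries, so their values are given side by side and are not independent of each other.

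LPS against control addresses what the inflammatory stimulus did to these genes. Of the 7 tested members, Gstp1 and Mgst2 fell and the other 5 did not pass the test. All 7 fold changes were below 0, with a median of -0.30 on the log2 scale against 0.02 for all tested genes, although Gsto1 and Gstt3 stood at 0.03 and 0.01 once control replicate 3 was left out. The members' median was then -0.11, and it was -0.58 without control replicate 1 and -0.20 once a smooth trend with gene length was removed from each library. Of all genes tested, 15.8% rose and 15.6% fell. With FPKM rescaled to TPM, in which every library has the same sum, this split was 1003 higher and 3059 lower, against 1827 and 1803.

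LPS + G-CDs against LPS addresses what the carbon dots changed in stimulated cells. None of the 7 members was called by limma, nor by voom on the recovered reads, and of the 6 other than Gstt3, 2 (Gstp1 and Mgst2) were higher at an unadjusted p under 0.05, as were 7.19% of all tested genes. By the same test, limma called 57 genes or 0.492% of all genes tested, of which 29 genes or 0.25% were higher, and between 11 and 256 genes when 1 library was left out (11 without LPS + G-CDs replicate 2, 256 without LPS + G-CDs replicate 1). The median log2 fold change of the 6 was 0.44 against 0.02 for all tested genes, with 5 values above 0 and Gstz1 below. That median dropped to 0.20 with the gene-length trend removed and to 0.27 without LPS + G-CDs replicate 3. Without that replicate Mgst2 stood at 0.48, Mgst3 at 0.32, Gsto1 at 0.23 and Gstm1 at 0.14, each smaller by over 1.5 times than with it. At the looser rule of an unadjusted p under 0.01 and a change over 1.5-fold, the rule of the study, 1 of these 6 was higher, Gstp1, and so were 1.24% of all tested genes.

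LPS + G-CDs against control sets the treated cells beside the unstimulated ones. Mgst2 fell, Gstt3 passed the threshold on the higher side among the genes the filter kept, and the other 5 were not called. Of all genes tested, 12.8% rose and 12.4% fell. With TPM this split was 761 higher and 3218 lower, against 1488 and 1439.

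By complete separation of the groups, Gstp1, Gstz1 and Mgst2 had every LPS library below every control library, as did 25.1% of all tested genes. Apart from Gstt3, Gstp1 and Mgst2 had every LPS + G-CDs library above every LPS library, which held for 12.9% of tested genes. Against control, Gstz1 and Mgst2 lay wholly below, as did 16.6% of tested genes.

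**Figure D2:**
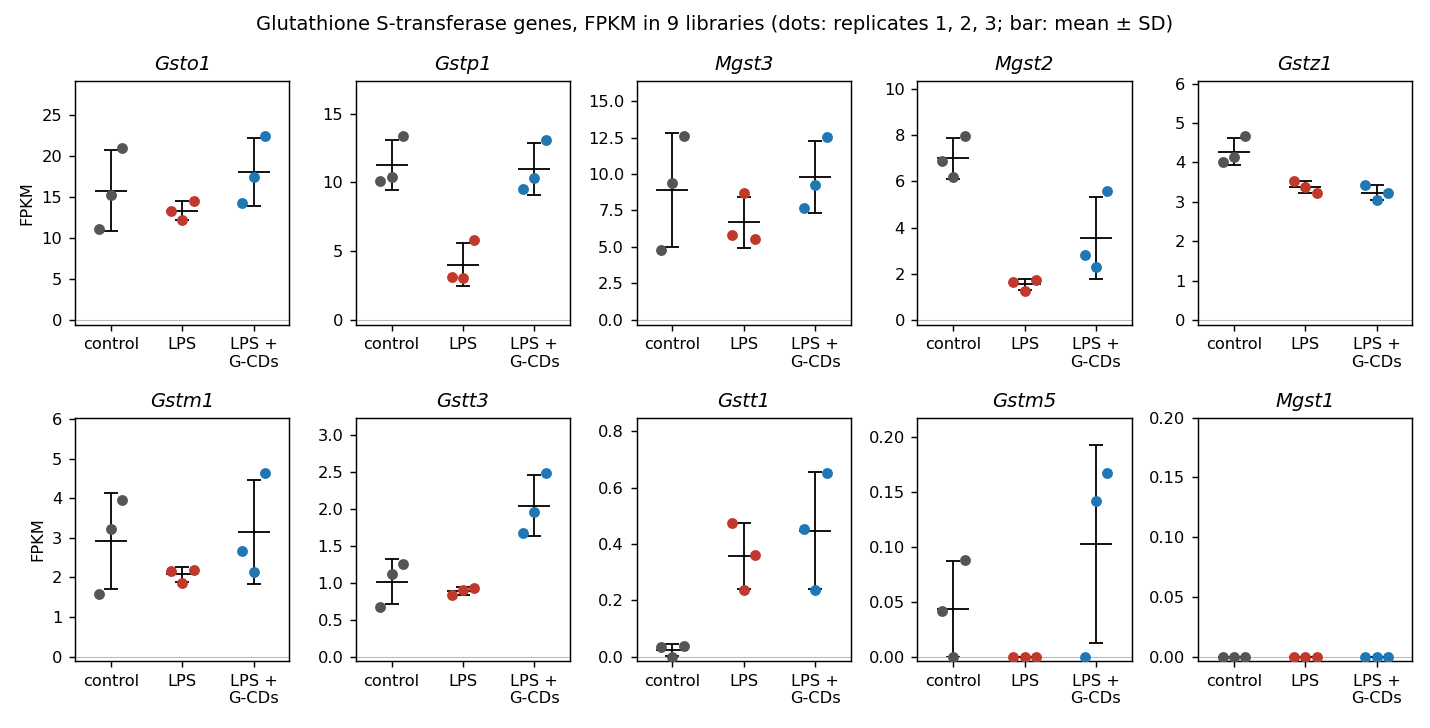
FPKM (vertical axis, a scale of its own for each gene) of the 10 genes in control, LPS and LPS + G-CDs libraries, with dots for replicates 1 to 3 and bars for the mean ± SD. Gstp1 and Mgst2 lie lower in LPS than in control libraries without overlap, Gstt3 lies highest in LPS + G-CDs libraries, and Mgst1 has no reads.

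Gstp1 encodes the class pi enzyme, which conjugates many electrophiles and also acts in the glutathionylation of proteins. The gene lies at chr19:4035407-4037921 on the minus strand (GRCm38), and the authors' gene model for it is 757 bases long. Gstp1 stood at 10.1, 10.4 and 13.4 FPKM in control replicates 1, 2 and 3, at 3.15, 3.06 and 5.82 in LPS, and at 9.50, 10.3 and 13.1 in LPS + G-CDs libraries. The highest LPS library was thus below the lowest library of both other groups, while control and LPS + G-CDs libraries overlapped.

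Against control, Gstp1 fell by 1.33 on the log2 scale with LPS (SE 0.22, adjusted p = 0.00188 in limma), and the ratio of mean FPKM was 0.356. This call held in all 20 alternative settings, with values between -1.72 and -1.20. In LPS + G-CDs against LPS the log2 difference was 1.29 (95% interval 0.79 to 1.79) and the ratio of means 2.74, and the adjusted p of 0.0514 in limma missed the threshold. It passed without LPS replicate 3 (1.53, adjusted p = 0.0278 in limma) and without LPS + G-CDs replicate 1 (1.38, adjusted p = 0.0415). It also passed with a filter at FPKM 5, with the gene-length trend removed, and with the replicate number as a block (adjusted p = 0.0112), but not with the last 2 together. Over 20 alternatives it passed in 5, with adjusted p between 0.0112 and 0.268. Against control the LPS + G-CDs libraries differed by -0.04, with an interval of -0.54 to 0.46 that leaves room for a change either way. Its values rested on 134 to 180 reads per control library, 32 to 64 per LPS library and 104 to 139 per LPS + G-CDs library.

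Gstp1 reads are uncertain in origin, since 62.3% of the 50-base words of its longest transcript also occur in transcripts of Gstp2 and 45.6% in those of the pseudogene Gstp-ps. Gstp2 held 0 to 2 reads per library, and Gstp-ps held 9 to 27 in control, 6 to 7 in LPS and 12 to 20 in LPS + G-CDs libraries. With the 3 genes pooled, reads per 1000000 of library size were 9.70 ± 1.79 in control, 3.54 ± 1.11 in LPS and 9.50 ± 1.72 in LPS + G-CDs libraries (SD, n = 3). The ratio of LPS + G-CDs to LPS was 2.69 for the pool, and that of LPS to control was 0.365.

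Mgst2 encodes a membrane-bound enzyme with glutathione transferase, peroxidase and leukotriene C4 synthase activity. It lies at chr3:51660360-51682677 on the plus strand, with a gene model of 3703 bases. Mgst2 stood at 6.87, 6.20 and 7.96 FPKM in control, at 1.66, 1.25 and 1.71 in LPS, and at 2.80, 2.28 and 5.59 in LPS + G-CDs libraries. The 3 groups did not overlap, and LPS + G-CDs replicate 3 lay well apart from the other two of its group.

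With LPS, Mgst2 fell by 1.66 on the log2 scale (SE 0.24, adjusted p = 0.000899 in limma), to 0.220 of the control mean, and this call held in all 20 alternatives. On this scale it was the largest change among the 7 tested members in the 3 comparisons. LPS + G-CDs against LPS gave 0.78 (interval 0.23 to 1.33, adjusted p = 0.249 in limma). Against control, Mgst2 in LPS + G-CDs libraries fell by 0.88 (SE 0.24, adjusted p = 0.0278 in limma), at 0.507 of the control mean. That call was lost without control replicate 1, 2 or 3 (adjusted p = 0.0673, 0.0512 and 0.0707 in limma), without LPS + G-CDs replicate 1 or 2 (0.0644 and 0.102), with no filter (0.0731) and from the 6 libraries of the comparison alone (0.0771). An uncurated transcript on the same strand, Gm37261, overlaps Mgst2 over 1101 bases, and it stood at 0.918 to 3.52 FPKM in control, 0 to 0.329 in LPS and 0.129 to 0.942 in LPS + G-CDs libraries, so reads of the pair may have been split between them.

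Mgst3, a relative with glutathione peroxidase activity, lies at chr1:167371966-167393841 on the minus strand. It stood at 4.76, 9.37 and 12.6 FPKM in control, at 5.80, 8.72 and 5.52 in LPS, and at 7.69, 9.22 and 12.5 in LPS + G-CDs libraries. The groups overlapped throughout, and the control libraries alone covered the range of the LPS libraries. Log2 differences were -0.30 for LPS against control (adjusted p = 0.506 in limma) and 0.49 for LPS + G-CDs against LPS (interval -0.22 to 1.21, adjusted p = 0.389). Over 20 alternatives the value for LPS against control ran from -0.65 to -0.03 and was never called.

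Mgst1, the microsomal enzyme of broad detoxifying activity, had 0 reads in all 9 libraries. The floor of 3 reads corresponds to 0.0795 to 0.108 FPKM for its gene model at chr6:138140316-138156755, and this covers counting error only. Of the 3 membrane-bound enzymes, the data thus held Mgst2 and Mgst3 at measurable levels.

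Gstt3, of class theta, lies at chr10:75774115-75781414 on the minus strand, with a gene model of 3842 bases. Gstt3 stood at 0.666, 1.12 and 1.26 FPKM in control, at 0.829, 0.905 and 0.931 in LPS, and at 1.67, 1.96 and 2.48 in LPS + G-CDs libraries. Every LPS + G-CDs library was above all 6 others, and control and LPS libraries overlapped. The values rested on 48 to 86, 44 to 52 and 93 to 134 reads per library in the 3 groups.

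Against control, Gstt3 in LPS + G-CDs libraries differed by 0.60 on the log2 scale (SE 0.16, adjusted p = 0.0242 in limma), with a ratio of mean FPKM of 2.01. Since Gstt3 passed the filter only through the libraries in which it was high, that p is not read as a change, and without the filter the adjusted p was 0.0630. The call was also lost with TPM (0.48, adjusted p = 0.125 in limma), from the 6 libraries of the comparison alone (0.0818), without control replicate 1 (0.0603) and without LPS + G-CDs replicate 2 (0.0705) or 3 (0.0669). LPS + G-CDs against LPS gave 0.68 (interval 0.32 to 1.04) with a ratio of means of 2.30, and it did not pass (unadjusted p = 0.00222 and adjusted p = 0.150 in limma). LPS alone against control gave -0.08 (adjusted p = 0.737 in limma). A gene model on the same strand that overlaps Gstt3 over 6840 bases, Gm20441, did not exceed 0.0957 FPKM.

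Its neighbor Gstt1, at chr10:75783813-75798584 on the minus strand, was below the filter. It had 1, 0 and 1 reads in control, 10, 5 and 8 in LPS, and 10, 6 and 14 in LPS + G-CDs libraries. Per read of library size, LPS was 14.6 times control, with an exact 95% interval of 3.61 to 128 from counting error alone, and LPS + G-CDs was 1.22 times LPS (0.685 to 2.20). When no filter on low values was used, Gstt1 was called in LPS against control (log2 difference 0.40, adjusted p = 0.0459 in limma) and in LPS + G-CDs against control (0.49, adjusted p = 0.0256). With that setting 3538 genes were called in the former comparison, 1795 of them higher, and 2695 in the latter, 1342 of them higher.

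Gsto1, of class omega, reduces dehydroascorbate and methylated arsenic and takes part in glutathionylation. It lies at chr19:47854970-47864790 on the plus strand and was the highest-expressed member. Gsto1 stood at 11.1, 15.3 and 20.9 FPKM in control, at 13.3, 12.2 and 14.5 in LPS, and at 14.2, 17.4 and 22.4 in LPS + G-CDs libraries. The groups overlapped in every comparison. LPS against control gave -0.19 (adjusted p = 0.583 in limma), and LPS + G-CDs against LPS gave 0.39 (interval -0.13 to 0.91, adjusted p = 0.366). The whole gene, 9821 bases, lies within Cfap43 on the opposite strand, which reached 3.04 FPKM at most, and if reads were counted without strand those of the pair cannot be told apart.

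Gstm1, the class mu enzyme, lies at chr3:108012255-108017973 on the minus strand. It stood at 1.59, 3.23 and 3.96 FPKM in control, at 2.16, 1.87 and 2.19 in LPS, and at 2.68, 2.13 and 4.64 in LPS + G-CDs libraries. The lowest and second-highest of the 9 values were both control libraries, and no comparison separated the groups. Its log2 differences were -0.30 for LPS against control (adjusted p = 0.445 in limma) and 0.39 for LPS + G-CDs against LPS (interval -0.24 to 1.01, adjusted p = 0.420). The value of -0.30 became -0.58 without control replicate 1 and -0.11 without control replicate 3. Of its 50-base words, 23.1% occur in other genes, 17.3% in the pseudogene Gstm2-ps1, so its level is uncertain to that extent.

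Gstm5, at chr3:107895821-107898686 on the plus strand, had 1, 0 and 2 reads in control, none in LPS, and 0, 3 and 3 in LPS + G-CDs libraries. No library exceeded the floor of 3 reads, which for this gene is 0.125 to 0.170 FPKM. No difference was detectable at this depth.

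Gstz1, of class zeta, is maleylacetoacetate isomerase, an enzyme of tyrosine breakdown, and thus a member with a fixed place in metabolism. It lies at chr12:87147165-87164723 on the plus strand. Gstz1 stood at 4.01, 4.14 and 4.67 FPKM in control, at 3.53, 3.39 and 3.22 in LPS, and at 3.43, 3.05 and 3.23 in LPS + G-CDs libraries. Control libraries lay above all 6 others, and the spread within groups was the smallest relative to the mean of the 7 tested members in all 3 groups.

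Gstz1 gave -0.27 for LPS against control (interval -0.51 to -0.03, adjusted p = 0.0854 in limma), -0.05 for LPS + G-CDs against LPS (interval -0.29 to 0.19, adjusted p = 0.794), and -0.32 for LPS + G-CDs against control (adjusted p = 0.0580). It was thus the only tested member below 0 in LPS + G-CDs against LPS, a difference that was small beside its interval. Pomt2 overlaps it over 804 bases on the opposite strand and reached 4.10 FPKM, and the antisense gene Gm6566 overlaps it over 6012 bases and reached 2.01 FPKM. Of 4 other genes of tyrosine breakdown, 1 was tested, Fah, and it was not called in any comparison.

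**Figure D3:**
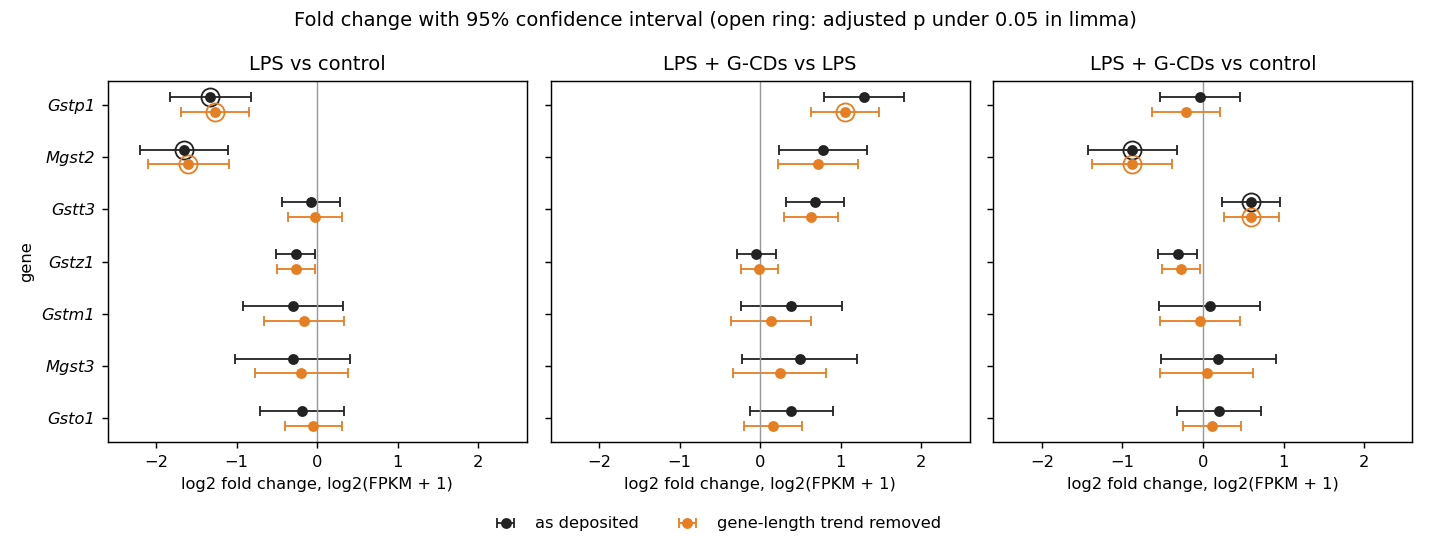
Log2 fold change on the log2(FPKM + 1) scale (horizontal axis) with its 95% confidence interval for the 7 tested genes (vertical axis) in the 3 comparisons, in black from the deposited values and in orange after removal of the gene-length trend, with a ring at an adjusted p under 0.05. Gstp1 in LPS + G-CDs against LPS is at 1.29 without a ring and at 1.06 with one.

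Gene length moved with some of these differences. Among tested genes, the 2946 shorter than 2000 bases had a median log2 fold change of 0.24 in LPS + G-CDs against LPS, and the 8639 longer ones -0.03. Relative to the mean of the LPS libraries, the short genes had a median of -0.04 in LPS + G-CDs replicate 1, 0.22 in replicate 2 and 0.52 in replicate 3, and of 0.25 in control replicate 3. Gstp1, Mgst3, Gstm1 and Gsto1 are below 2000 bases, and all 4 were higher in LPS + G-CDs replicate 3 than in replicate 1. So were the longer Mgst2, at 1.38 against 0.59 above the LPS mean, and Gstt3, at 0.88 against 0.50, and with the trend removed these stood at 1.26 against 0.59 and at 0.79 against 0.51.

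Once each library was freed of its gene-length trend, the difference between LPS + G-CDs and LPS was 1.06 for Gstp1, with an adjusted p of 0.0463 in limma. The 3 LPS + G-CDs libraries then stood 1.15, 1.02 and 1.00 above the LPS mean, against 1.11, 1.22 and 1.53 as deposited. Mgst2 stood at 0.72 and Gstt3 at 0.63 after the removal, while Mgst3 dropped to 0.24, Gsto1 to 0.16 and Gstm1 to 0.13. The differences of the last 3 thus moved by over 1.5 times with this setting and passed the test under neither.

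**Figure D4:**
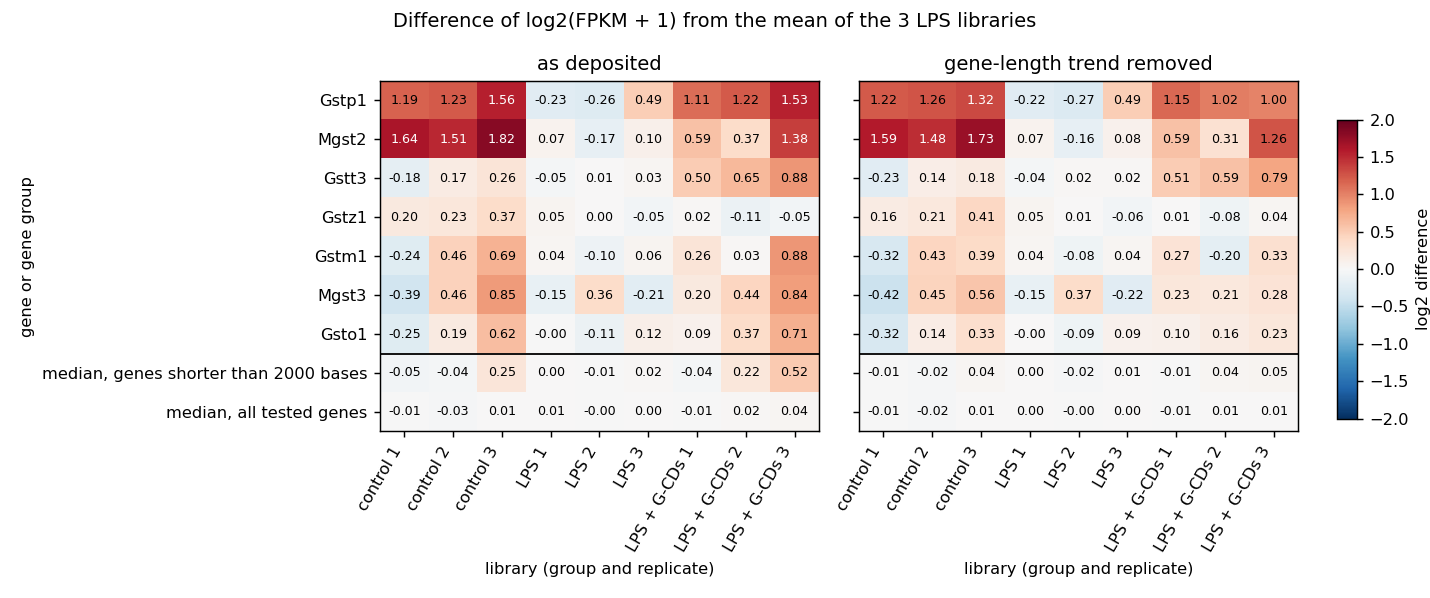
Difference of log2(FPKM + 1) from the mean of the 3 LPS libraries (color and printed value) for the 7 tested genes and for medians of gene groups (rows) in the 9 libraries (columns), as deposited on the left and with the gene-length trend removed on the right. Genes shorter than 2000 bases have a median of 0.52 in LPS + G-CDs replicate 3 as deposited and of 0.05 after the removal, while Gstp1 then lies at 1.00 to 1.15 in the 3 LPS + G-CDs libraries.

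Pairs of tested members were correlated to unlike degrees over the 9 libraries. Pearson's r on the log2 scale ran from -0.39 for Gstt3 and Gstz1, the only pair below 0, to 0.88 for Gstm1 and Gsto1. For Gstp1 and Mgst2 it was 0.82. These points share 3 treatments and the length trend, so the values are descriptive. The genes most like Gstp1 over the 9 libraries were Flad1 (r = 0.970), Flot1 (0.956) and Osgin1 (0.953). Those most like Gsto1 were Itm2b (0.990), Ndufv2 (0.983) and Uqcc2 (0.983), and those most like Mgst3 were 2310009A05Rik (0.973), 4930461G14Rik (0.969) and Tmcc1 (0.965).

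Beyond the 10 genes, 25 relatives were listed (other glutathione S-transferases, MAPEG proteins and related folds), and 12 passed the filter. With LPS, 4 of these rose and 3 fell, while 15.8% of all tested genes rose and 15.6% fell. Among the 3 that fell, Ltc4s reached the filter only in control libraries, where it was high. Neither limma nor voom called any of the 12 in LPS + G-CDs against LPS, with 2 at an unadjusted p under 0.05, as were 15.2% of all tested genes. The highest-expressed relative was Eef1g, a translation elongation factor subunit with a transferase-like domain, at a mean of 399 FPKM, and it was not called in any comparison. The relatives named in the rest of this paragraph and the next were singled out after their values were seen. Gstt4, which lies with Gstt3, Gstt1 and Gstt2 in 63310 bases of chromosome 10, stood at 0, 0 and 0.0568 FPKM in control, at 10.2, 10.3 and 9.74 in LPS, and at 9.65, 12.1 and 15.8 in LPS + G-CDs libraries. It went from 1 read in the 3 control libraries to 420 in the 3 LPS libraries, a ratio of 534 after scaling to library size with an exact counting interval of 95.3 to 21130, and rose with LPS (adjusted p = 7.35e-07 in limma). Gstp3, which lies within 24040 bases of chromosome 19 with Gstp1 and Gstp2, stood at 0.0752, 0.166 and 0.158 FPKM in control and at 3.06, 3.68 and 5.14 in LPS libraries, and rose with LPS by 2.11 (adjusted p = 1.55e-05 in limma). LPS + G-CDs libraries held 3.32, 3.06 and 3.01 FPKM of Gstp3. Within both clusters, neighbors thus took unlike values with LPS, with Gstp3 higher and Gstp1 lower.

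The other relatives called with LPS were Ptges, Clic4, Alox5ap, Hpgds and Ltc4s. Ptges, which makes prostaglandin E2, rose by 2.80 (adjusted p = 8.83e-07 in limma), while Ptges2, named for a like activity, stood at -0.42 (adjusted p = 0.131). Clic4, a chloride channel protein with a transferase fold, rose by 1.62 (adjusted p = 0.0005 in limma). Alox5ap, which presents arachidonate for leukotriene synthesis, fell by 1.66 (adjusted p = 0.00064 in limma), and so did Hpgds, a prostaglandin D synthase of class sigma, by 1.02 (adjusted p = 0.00107) and Ltc4s, the leukotriene C4 synthase, by 0.95 (adjusted p = 0.00416). For Ltc4s, which was tested only through its control libraries, the adjusted p with no filter was 0.00918 in limma. In LPS + G-CDs against LPS, Alox5ap differed by 0.71 (interval 0.19 to 1.23), Clic4 by -0.54 (interval -1.02 to -0.05), Ltc4s by 0.38, Hpgds by -0.08 and Ptges by -0.30, and none passed.

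**Figure D5:**
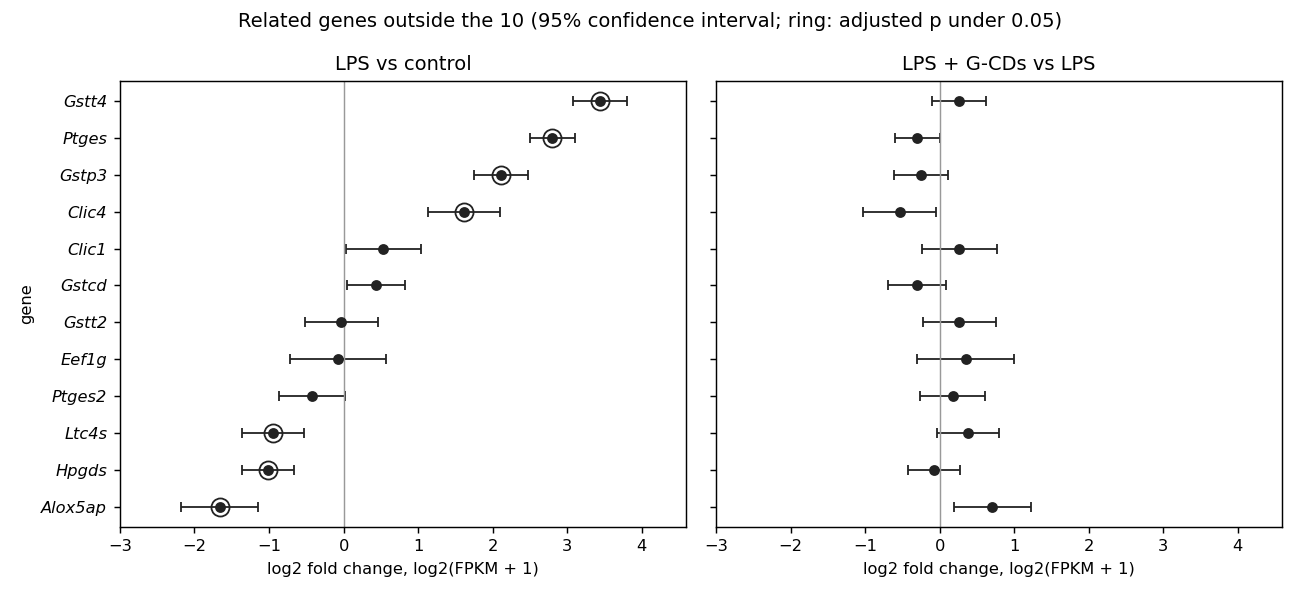
Log2 fold change on the log2(FPKM + 1) scale (horizontal axis) with its 95% confidence interval for the 12 tested relatives outside the 10 genes (vertical axis), for LPS against control and LPS + G-CDs against LPS, with a ring at an adjusted p under 0.05. Gstt4, Ptges, Gstp3 and Clic4 are called higher and Ltc4s, Hpgds and Alox5ap lower with LPS, and no ring appears in LPS + G-CDs against LPS.

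The supply of glutathione was examined with 17 genes of its synthesis and recycling, of which 14 were tested. In LPS + G-CDs against LPS, 2 rose and none fell, while 0.25% of all tested genes rose. The median of the 14 was 0.33, against 0.02 for all tested genes. Gclm, the regulatory subunit of the enzyme that limits glutathione synthesis, stood at 10.2, 10.5 and 11.4 FPKM in control, 8.73, 9.63 and 9.48 in LPS, and 36.7, 43.4 and 43.1 in LPS + G-CDs libraries, a log2 difference of 2.03 (adjusted p = 9.65e-05 in limma). Pgd, an NADPH-forming enzyme of the pentose phosphate pathway, rose by 0.99 (adjusted p = 0.0311 in limma), and G6pdx, the highest-expressed of the list, differed by 0.63 (adjusted p = 0.150). The call of Pgd was lost when control replicate 2, any single LPS replicate, or replicate 2 or 3 of LPS + G-CDs, was omitted (adjusted p of 0.0573 to 0.207 in limma), with no filter (0.0552) and from the 6 libraries alone (0.0734), and G6pdx was called without control replicate 1 (0.0456). With the gene-length trend removed, 4 of the 14 were called higher, as were 38 of the 11585 genes tested. With LPS alone, 5 of the 14 rose and 2 fell, while 15.8% of all tested genes rose and 15.6% fell. These 7 became 3 without control replicate 2, LPS replicate 1 or LPS replicate 3, and 4 without LPS replicate 2 or LPS + G-CDs replicate 2.

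Of 14 genes of conjugate export and processing, 8 were tested. With LPS, 3 of the 8 were called higher and 2 lower, while 15.8% of all tested genes rose and 15.6% fell. Of the 5 called, Dpep2 and Abcc3 (named after their values were seen) passed the filter only through the group in which they were higher. With no filter their adjusted p was 0.00028 and 0.000536 in limma. None was called by limma or voom in LPS + G-CDs against LPS, where 2 of the 8 had an unadjusted p under 0.05, as did 15.2% of all tested genes. The 5 called with LPS became 2 with a filter at FPKM 5, and 3 without control replicate 2, without LPS + G-CDs replicate 2 or with any single LPS replicate omitted. The highest-expressed was Abcc1, an exporter of glutathione conjugates, which rose with LPS by 0.94 (adjusted p = 0.0322 in limma). Its call was lost when control replicate 2 or 3, any single LPS replicate, or replicate 2 of LPS + G-CDs, was omitted, with adjusted p of 0.0531 to 0.0937 in limma, and also with TPM (0.191) and with no filter (0.0752). Of 16 other glutathione-using enzymes, 13 were tested. In this list 1 rose with LPS and 5 fell, while 15.8% of all tested genes rose and 15.6% fell. Of the 13, 1 rose and 9 fell with TPM, and without control replicate 3 or any single LPS replicate 1 rose and 1 fell. Only Esd, which acts in glutathione-dependent formaldehyde removal, rose in LPS + G-CDs against LPS, by 1.76 (adjusted p = 0.0169 in limma). Of all tested genes, 0.25% rose there. The call of Esd was lost when any single LPS replicate, or replicate 2 of LPS + G-CDs, was omitted (adjusted p of 0.0816 to 0.116 in limma), and from the 6 libraries alone (0.0545). Gpx1, the main cytosolic glutathione peroxidase and the highest-expressed of that list, fell with LPS by 1.08 (adjusted p = 0.0199 in limma) and was not called between LPS + G-CDs and LPS (interval -0.65 to 0.65). The fall of Gpx1 with LPS missed the threshold when control replicate 3 or any single LPS replicate was left out (adjusted p of 0.0557 to 0.0634 in limma).

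Of 20 genes of Nrf2 regulation and Nrf2 targets outside the family, 19 were tested. In LPS + G-CDs against LPS, 6 of these rose and none fell, while 0.25% of all tested genes rose. The median of the 19 was 0.77, against 0.02 for all tested genes. The 6 became 3 without LPS replicate 1, LPS replicate 2 or LPS + G-CDs replicate 2. The 4 largest were Hmox1 (heme oxygenase) at 3.23, Srxn1 (sulfiredoxin) at 2.22, Slc48a1 (a heme transporter) at 2.03 and Blvrb (a biliverdin reductase) at 1.92, with adjusted p of 9.65e-05, 9.65e-05, 0.00356 and 0.0226 in limma. The call of Blvrb was lost when any single LPS replicate, or replicate 2 of LPS + G-CDs, was omitted (adjusted p of 0.0878 to 0.143), with no filter (0.0641) and from the 6 libraries alone (0.0683). Hmox1 stood at 73.8 to 80.7 FPKM in LPS and 634 to 813 in LPS + G-CDs libraries. Fth1, the ferritin heavy chain and highest-expressed of the list, differed by 1.10 and was not called (adjusted p = 0.249 in limma). The largest difference of a transferase in the same comparison was 1.29, for Gstp1. It was below these 4 genes and Gclm, but the 4 were picked as the largest of their list. It was above that list's median of 0.77. Whether the transferases differ from the other Nrf2 targets was not tested, and the list was drawn up with results of these data known.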

How the data were processed

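mRNA of 9 libraries of RAW264.7 cells (3 control, 3 LPS, 3 LPS + G-CDs) was sequenced by the authors on an Illumina instrument. The authors deposited FPKM values per gene and library, with gene coordinates and lengths. The submitters' processing notes name GRCm38 and mm10. Coordinates equaled those of GENCODE mouse release 21 for 53585 of the 54495 genes found in it. The aligner and counter are not given in the sources used here, and the protocol names no step that marks strand. FPKM multiplied by gene length gave whole reads (100% within 0.05 reads), and the library size that had been divided by was 1.11 to 1.14 times the reads on genes in control, 0.929 to 0.936 times in LPS and 0.880 to 0.980 times in LPS + G-CDs libraries. The deposited values thus already hold a scaling between libraries.

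A gene was kept where 3 or more of the 9 libraries reached an FPKM of 1. The log2(FPKM + 1) values entered 1 model of the 3 groups (limma 3.58.1 under R 4.3.3, lmFit with trended eBayes, two-sided). Tables were made with Python 3.11.15 and pandas 2.3.3. The test was also run on simulated reads that held no gene-length trend, a setting simpler than these data. The 10 genes and the gene lists were chosen with earlier results of these data known. Outside the 10, a list's genes were named if past an adjusted p of 0.05 in LPS + G-CDs against LPS (at most the 4 of largest change) or highest-expressed, and for the 3 highest-expressed members the 3 genes of highest Pearson r were named. Relatives named for their values with LPS were chosen after those values were seen.

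The groups share replicate numbers, which the labels do not explain. After subtraction of group means, the control and LPS libraries of each number correlated weakly (0.103, 0.137 and 0.113), though each value was over 0.1. Each of these 6 libraries correlated best with its own number. Whether same-numbered libraries are paired was not tested, and the main model held no pairing. The alternatives were a pseudocount of 0.1, no filter, a filter at FPKM 5, TPM, median-of-ratios scaling, a gene-length trend removed by loess, a fit of only the 6 libraries compared, untrended eBayes, voom on the recovered reads, a replicate block, and fits that each omitted 1 library. Removal of the trend together with the block was added after seeing the data. Intervals and floors from reads cover counting error only. Promoters are from RefSeq (GRCm38.p6), matched by symbol for all 10 genes.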

Additional observations from a re-analysis of the deposited data

How the results depend on the processing

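Of 411 fold changes of the 7 tested genes under the alternatives, 378 kept their direction and their side of the threshold. The calls of Gstp1 and Mgst2 in LPS against control were kept in all 20. In LPS + G-CDs against LPS, the count of genes called (57) was 25 with a pseudocount of 0.1, 27 with TPM, 89 with the gene-length trend removed, 25 from the 6 libraries alone and 11 to 256 with a library left out (without control replicate 2, 23, without LPS replicates 1, 2 and 3, 14, 12 and 21, and without LPS + G-CDs replicates 1, 2 and 3, 256, 11 and 29). Of the 10 genes, none was called there, and 1 (Gstp1) was with a filter at FPKM 5, with the length trend removed and with the replicate block, and 0 to 1 with a library left out. In LPS + G-CDs against control, the 2927 genes called became 1789 from the 6 libraries alone and 1914 to 3245 with a library left out (1914 without LPS + G-CDs replicate 2). Only Mgst2 is counted as a change there, since Gstt3 passed the filter through the LPS + G-CDs group alone. The 2 members past the threshold (Gstt3 included) became 1 with no filter (Gstt1, with neither of these), 1 with a filter at FPKM 5 (Mgst2, with Gstt3 untested), 0 from the 6 libraries alone and 0 to 2 with a library left out.

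TPM moved the median of all genes to -0.23 in LPS against control, -0.14 in LPS + G-CDs against LPS and -0.38 in LPS + G-CDs against control. With TPM, Gstt3 was no longer called in LPS + G-CDs against control (0.48). Gstz1 was called with TPM in LPS against control (-0.56, or -0.33 relative to that median) and in LPS + G-CDs against control (-0.77, or -0.39 relative to it). In LPS + G-CDs against control, TPM turned Gstm1 to -0.29, Gsto1 to -0.22 and Mgst3 to -0.21, which relative to the median were 0.09, 0.16 and 0.16, and removal of the length trend turned Gstm1 to -0.033, with and without the block. With a library left out, signs turned for Gstm1 (-0.19 to 0.28), Gsto1 (-0.012 to 0.42), Gstp1 (-0.16 to 0.080) and Mgst3 (-0.16 to 0.46) in that comparison and for Gsto1 (-0.40 to 0.030) and Gstt3 (-0.21 to 0.0077) in LPS against control, and none of these was called. Among relatives and pathway genes named, the length trend removed, with and without the block, turned Eef1g to 0.027 in LPS against control and Hpgds to 0.036 in LPS + G-CDs against LPS. With a library left out, Eef1g ran from -0.19 to 0.15 and Gpx1 in LPS + G-CDs against LPS from -0.27 to 0.24. Of the conjugate export and processing genes, none was called in LPS + G-CDs against LPS, but 1 was with median-of-ratios scaling, with the length trend removed or without LPS + G-CDs replicate 1, and 2 with untrended eBayes or with the trend removed and the block. The cause of these changes was not tested.

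With the replicate number as a block, Gstp1 in LPS + G-CDs against LPS had an adjusted p of 0.0112 in limma (log2 difference 1.29), and 53 genes were called. Removing the length trend as well gave 1.06 and 0.0616. In this comparison same-numbered libraries correlated at 0.095, 0.0801 and 0.143 and each of the 6 correlated best with its own number, and in LPS + G-CDs against control at 0.280, 0.0575 and 0.653, with 4 of 6. The block changed no other call of a member. Gstt1, Gstm5 and Mgst1 lay below the filter, and whether greater depth would change this was not tested.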
